A study of Mus musculus with 4 samples.

Results

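Motile cilia genes encode the motor arms, links, spokes and central apparatus of beating cilia and the factors that switch those genes on. The 38 genes described here were chosen by name, as known axoneme genes and their regulators, after such genes had been seen to stand higher on the LTKO array. The levels on these same arrays therefore went into the choice, and the levels and differences below are descriptions. Of the 38 genes, 33 were measured, among 22180 measured genes in all. Dnah7b, Ccdc39 and Mns1 are carried only by probes with several gene symbols, and Dnah3 and Dnah12 are not listed in the probe table used here.

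RNA came from epigonadal white adipose tissue, a visceral fat pad next to the epididymis, of male mice that had been fasted, with 1 Affymetrix whole-transcript array in each of 4 groups. LDKO mice carry floxed Irs1 and Irs2, which encode insulin receptor substrates, together with Albumin-Cre. Their control, the Irs1/2-flox control, carries the same floxed alleles without Cre. LTKO mice carry floxed Irs1, Irs2 and Foxo1 together with Albumin-Cre, and their control, the Irs1/2:FoxO1-flox control, carries the 3 floxed genes without Cre. All 4 groups thus share the floxed Irs1 and Irs2 alleles. The albumin promoter drives Cre in hepatocytes, so the fat itself is not the tissue it targets. LDKO and LTKO mice were 4 months old; the labels give no age for the controls and do not say whether an array is 1 mouse or a pool. With 1 array in each group, the differences carry no error estimate and no test.

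A motile cilium beats because dynein motors, set in outer and inner arms on the doublet microtubules of its core, the axoneme, slide the doublets against each other. Radial spokes and a central pair of microtubules control the dyneins, nexin links hold the doublets together, and cytoplasmic assembly factors build the arms beforehand. Foxj1, a forkhead factor, and Rfx2 and Rfx3, which bind X-box motifs, are known as regulators of these genes. Such cilia are known from epithelia of the airway, the brain ventricles, the oviduct and the efferent ducts of the testis, and sperm tails share most of the axoneme. Adipocytes are not known for motile cilia.

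Several promoters of these genes hold the letters that the regulators are known to bind, and 8 of them are shown here because they place those letters on the gene. The X-box core searched was GTTGCC, which reads GGCAAC on the opposite strand. The forkhead motif searched was GTAAACA, which reads TGTTTAC on the opposite strand. Each line gives 60 bases from RefSeq promoters on GRCm38.p6, 5′ to 3′ in the direction of the gene, with the motif in capitals. Drc1, Hydin and Zmynd10 are the genes at least 2-fold higher in LTKO that hold the X-box core, Tekt1, Spag16 and Dnah10 hold it at 2 places within the window, and Ak7 and Stoml3 hold the forkhead motif.
Drc1: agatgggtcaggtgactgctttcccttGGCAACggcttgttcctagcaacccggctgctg
Hydin: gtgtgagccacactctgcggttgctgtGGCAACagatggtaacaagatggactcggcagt
Zmynd10: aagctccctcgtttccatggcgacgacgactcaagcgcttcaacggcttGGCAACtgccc
Tekt1: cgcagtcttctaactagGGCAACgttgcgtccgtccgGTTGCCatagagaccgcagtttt
Spag16: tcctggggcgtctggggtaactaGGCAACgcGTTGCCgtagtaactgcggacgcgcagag
Dnah10: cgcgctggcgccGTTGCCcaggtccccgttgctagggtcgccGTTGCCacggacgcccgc
Ak7: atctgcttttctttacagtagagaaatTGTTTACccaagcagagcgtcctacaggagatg
Stoml3: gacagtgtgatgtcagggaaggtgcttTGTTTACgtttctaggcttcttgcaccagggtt

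These windows lie at chr5:30281355-30281414 (Drc1), chr8:110266937-110266996 (Hydin), chr9:107547294-107547353 (Zmynd10), chr1:69826836-69826895 (Spag16), chr5:124725053-124725112 (Dnah10), chr12:105705824-105705883 (Ak7) and chr3:53488588-53488647 (Stoml3), all on the plus strand. The Tekt1 window lies at chr11:72361875-72361934 on the minus strand. In Tekt1 and Spag16 the pair of cores face opposite ways, and in Dnah10 they face the same way. The core of Drc1 covered bases -11 to -6 from the annotated start site, that of Hydin bases -13 to -8, and that of Zmynd10 bases 40 to 45. The forkhead match of Ak7 covered bases -131 to -125 and that of Stoml3 bases -92 to -86.

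On both strands of the 300 bases around the start, the X-box core was found in 16 of the 33 members with a promoter (48.5%), against 3821 of 27025 genes with a promoter (14.1%). Lists of like genes held it about as often, with 31 of 60 other axoneme genes (51.7%) and 18 of 34 genes of intraflagellar transport and the cilium base (52.9%). The longer spelling GTTGCCA, which contains the core, was found in 7 of the 33 members (21.2%), against 5.02% of all genes. The forkhead motif was found in 2 of 33 members (6.06%), against 4.05% of all genes. Promoters of Foxj1, Dnah3, Rsph1, Rsph4a and Lrrc6 were not analysed here. Among members with both a promoter and a measured level, the core was found in 3 of the 10 that stood at least 2-fold above the control in LTKO, and in 11 of the 19 that did not. The longer spelling was in 2 of those 19 members and in 3 of those 10, the same Drc1, Hydin and Zmynd10 that hold the core. The forkhead motif was in 2 of the 10 and 0 of the 19. The spellings were chosen after values were seen, so these small counts set no direction. These shares describe letters in a window, and neither binding nor its part in the levels was tested.

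**Figure D1:**
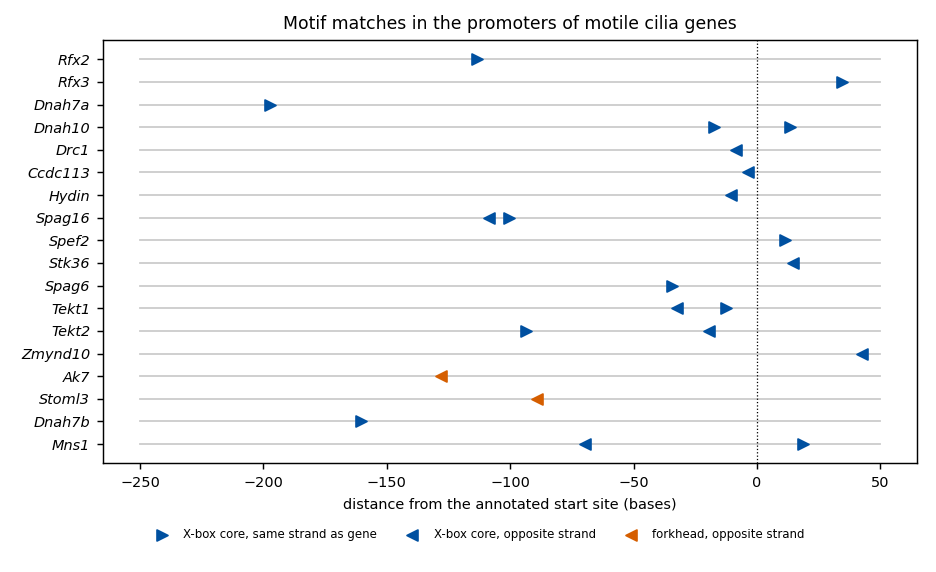
Motif matches in the promoters of the 18 members that hold one: each grey line is 1 promoter from 250 bases before to 50 bases after the start site, and the x axis is the distance from the start in bases. Blue triangles are X-box cores and orange triangles forkhead motifs, pointing right on the gene's strand and left on the other; most cores lie near the start, and Ak7 and Stoml3 carry the only forkhead matches.

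Levels below are RMA values in log2 units, so a difference of 1 is 2-fold, and counts are of genes that differ by at least 2-fold. LTKO fat had 13 of 33 motile cilia genes at least 2-fold higher than the Irs1/2:FoxO1-flox control and 0 at least 2-fold lower, where 1.13% of all genes were that much higher and 0.0361% that much lower. The median difference of the members was 0.86, against -0.02 over all genes, and 32 of 33 were above 0. Those 13 genes are 39.4% of the measured members and 5.20% of the 250 genes that passed 2-fold upward in LTKO. LDKO fat had 0 members at least 2-fold higher than the Irs1/2-flox control and 1, Stoml3, at least 2-fold lower, where 0.334% and 0.356% of all genes were. The median difference there was -0.08, with 8 members above 0 and 25 below.

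The 2 floxed controls also differed. The Irs1/2:FoxO1-flox control had 0 members at least 2-fold higher than the Irs1/2-flox control and 3 lower, Stoml3, Rsph4a and Ak7, where 0.149% and 0.334% of all genes were. The median difference between the controls was -0.32, and 30 of 33 members were below 0. The LTKO array was the highest of the 4 for 32 of 33 members (97.0%), against 21.7% of all genes. The Irs1/2:FoxO1-flox control was the lowest for 25 members (75.8%), against 23.3% of all genes. Those 25 members had LTKO as the highest array as well, with LDKO and the Irs1/2-flox control in between, an order of extremes that 7.33% of all genes had.

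Set against other arrays, LTKO stood apart by less. Against the Irs1/2-flox control, 3 members were at least 2-fold higher in LTKO (Dnah5, Dnah11 and Rsph1) and 0 lower, where 0.600% and 0.289% of all genes were. Directly against LDKO, 4 members were at least 2-fold higher (Dnah5, Dnah11, Rsph4a and Stoml3) and 0 lower, where 0.929% and 0.383% of all genes were. The median difference was 0.46 against the Irs1/2-flox control and 0.57 against LDKO, and 32 of 33 members were above 0 in each. These comparisons share the LTKO array. In whole tissue, fewer cells of a type and less RNA per cell cannot be told apart.

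**Figure D2:**
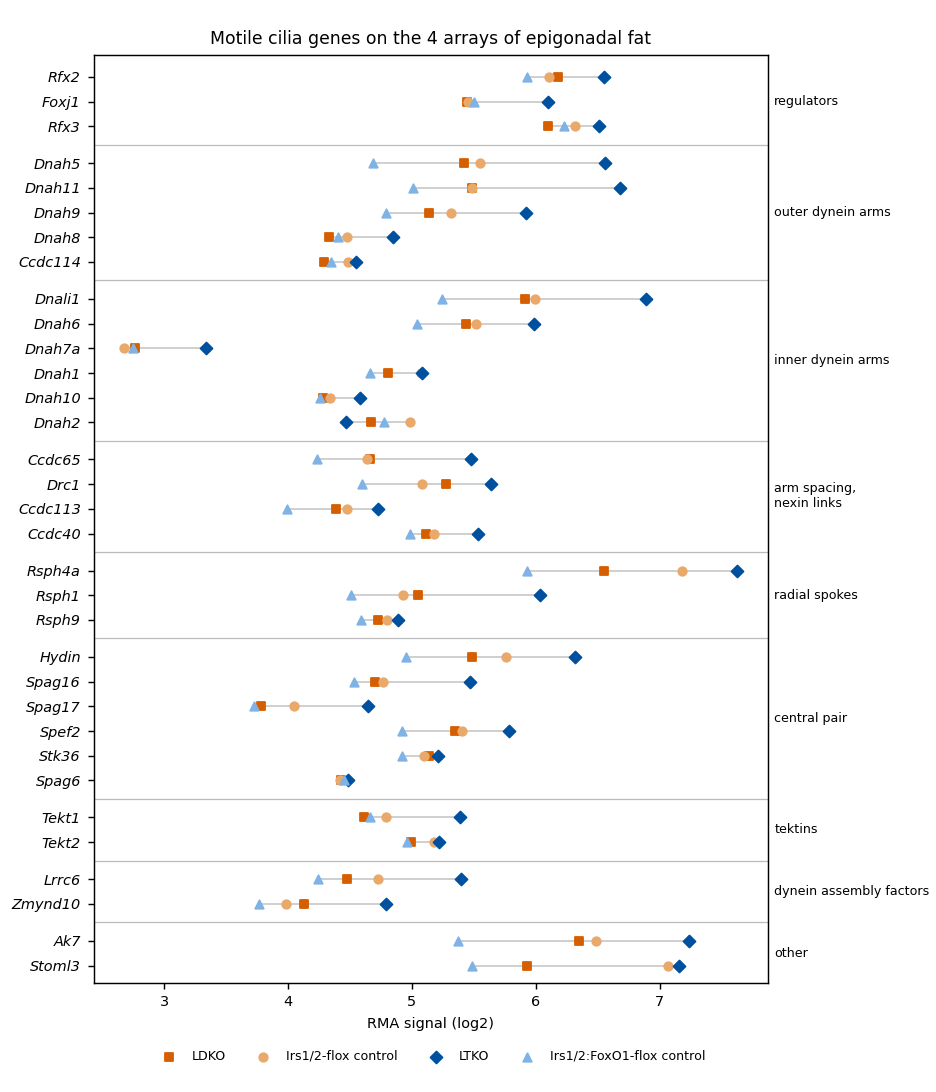
Level of each of the 33 measured motile cilia genes on the 4 arrays, in log2 RMA units on the x axis, with 1 gene in each row, grouped by role. The LTKO point lies furthest right for every gene but Dnah2, and the Irs1/2:FoxO1-flox control lies furthest left for 25 genes.

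The regulators differed by less than 2-fold. Foxj1, the forkhead factor that switches on motile cilia genes, had a level of 5.44 in LDKO and 5.45 in the Irs1/2-flox control, and of 6.10 in LTKO and 5.50 in the Irs1/2:FoxO1-flox control. Only the LTKO array stood apart, by 0.60 from its control, and the other 3 lay within 0.06 of each other. Rfx2 had 6.18 in LDKO and 6.10 in the Irs1/2-flox control, and 6.55 in LTKO and 5.93 in the Irs1/2:FoxO1-flox control, which left LTKO higher than its control by 0.63. Rfx3, the other X-box factor, had 6.10 in LDKO and 6.31 in the Irs1/2-flox control, and 6.51 in LTKO and 6.23 in the Irs1/2:FoxO1-flox control, a difference of 0.29 in LTKO.

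Among the 5 outer dynein arm genes, 3 heavy chains stood at least 2-fold above the control in LTKO. Dnah5, the outer arm chain known from primary ciliary dyskinesia, had a level of 5.42 in LDKO and 5.55 in the Irs1/2-flox control, and of 6.56 in LTKO and 4.69 in the Irs1/2:FoxO1-flox control. This was the member with the greatest LTKO difference, 1.87 or 3.66-fold, while LDKO differed from its control by -0.13. Dnah11, known from left-right asymmetry, had 5.48 in LDKO and 5.49 in the Irs1/2-flox control, and 6.68 in LTKO and 5.01 in the Irs1/2:FoxO1-flox control, a difference of 1.66 in LTKO. Dnah9 had 5.13 in LDKO and 5.31 in the Irs1/2-flox control, and 5.92 in LTKO and 4.79 in the Irs1/2:FoxO1-flox control, a difference of 1.13. In all 3 the LTKO array was highest and the Irs1/2:FoxO1-flox control lowest, with LDKO and the Irs1/2-flox control in between. Dnah8, the outer arm chain of sperm tails, and Ccdc114, of the complex that docks the outer arms, differed by 0.45 and 0.20 in LTKO.

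Of the 6 inner arm genes measured, Dnali1 alone passed 2-fold in LTKO. Dnali1, a light intermediate chain, had a level of 5.91 in LDKO and 5.99 in the Irs1/2-flox control, and of 6.89 in LTKO and 5.24 in the Irs1/2:FoxO1-flox control. The LTKO difference was 1.65 and the LDKO difference -0.08. Dnah6 lay just under the threshold, with 5.43 in LDKO and 5.52 in the Irs1/2-flox control, and 5.98 in LTKO and 5.04 in the Irs1/2:FoxO1-flox control. Dnah7a, Dnah1 and Dnah10, also heavy chains, had LTKO differences of 0.59, 0.42 and 0.33. Dnah7a has the near-identical copy Dnah7b, so its probe may read more than 1 gene.

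Dnah2 was the exception among the members by its brighter probe. It had a level of 4.67 in LDKO and 4.98 in the Irs1/2-flox control, and of 4.47 in LTKO and 4.77 in the Irs1/2:FoxO1-flox control. LTKO was its lowest array. Its dimmer probe gave the opposite direction, 4.49 in LTKO and 3.79 in the Irs1/2:FoxO1-flox control, a difference of 0.70. The probes of Dnah2 thus disagree, and the sign of its difference in LTKO depends on which is read. With the mean of a gene's probes, Dnah2 differed by 0.20 in LTKO and Spag6 was the member below 0, at -0.13.

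The genes of arm spacing and nexin links were higher in LTKO by 0.89 in the median, over 4 measured of 5. Ccdc65, a subunit of the nexin-dynein regulatory complex, had a level of 4.66 in LDKO and 4.63 in the Irs1/2-flox control, and of 5.48 in LTKO and 4.24 in the Irs1/2:FoxO1-flox control. Drc1, a subunit of the same complex, had 5.27 in LDKO and 5.08 in the Irs1/2-flox control, and 5.64 in LTKO and 4.60 in the Irs1/2:FoxO1-flox control. Both stood at least 2-fold above the control in LTKO, by 1.24 and 1.04. Ccdc113, an axoneme protein, and Ccdc40, part of the ruler that spaces the arms, had LTKO differences of 0.74 and 0.55.

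Radial spoke genes held the greatest median difference of the axoneme groups with more than 2 measured genes, 1.52 in LTKO. Rsph4a, a spoke head protein, had a level of 6.55 in LDKO and 7.18 in the Irs1/2-flox control, and of 7.62 in LTKO and 5.93 in the Irs1/2:FoxO1-flox control. The Irs1/2-flox control thus stood well above the Irs1/2:FoxO1-flox control for this gene, and LDKO lay between the controls. Rsph1, also of the spoke head, had 5.05 in LDKO and 4.92 in the Irs1/2-flox control, and 6.03 in LTKO and 4.51 in the Irs1/2:FoxO1-flox control, a difference of 1.52. Rsph9 differed by 0.30 in LTKO.

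In the central pair group, Hydin passed 2-fold and 3 genes lay close below it. Hydin, whose loss causes hydrocephalus in mice, had a level of 5.48 in LDKO and 5.75 in the Irs1/2-flox control, and of 6.32 in LTKO and 4.95 in the Irs1/2:FoxO1-flox control. Its brighter probe thus gave a difference of 1.37 in LTKO, and its dimmer probe -0.03. Spag16, Spag17 and Spef2, structural proteins of the central apparatus, had LTKO differences of 0.94, 0.92 and 0.86, and the dimmer probe of Spag17 gave -0.03. Stk36, a kinase family member needed for the central pair in mice, and Spag6 had LTKO differences of 0.30 and 0.03, and the dimmer probe of Spag6 gave -0.30. Spag6 has a near-identical copy, Spag6l, whose level was 6.54 in LTKO and 5.20 in the Irs1/2:FoxO1-flox control, a difference of 1.34; Spag6l is no member and was picked after its values were seen.

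The tektins, filaments inside the doublets, differed by 0.72 (Tekt1) and 0.26 (Tekt2) in LTKO, and the dimmer probe of Tekt2 gave -0.17. Both dynein assembly factors measured passed 2-fold. Lrrc6 had a level of 4.47 in LDKO and 4.73 in the Irs1/2-flox control, and of 5.40 in LTKO and 4.24 in the Irs1/2:FoxO1-flox control, a difference of 1.16. Zmynd10, its partner in arm assembly, had 4.13 in LDKO and 3.99 in the Irs1/2-flox control, and 4.79 in LTKO and 3.77 in the Irs1/2:FoxO1-flox control, a difference of 1.02. For each of these assembly factors LTKO was the highest array and the Irs1/2:FoxO1-flox control the lowest.

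Ak7, Stoml3 and the spoke gene Rsph4a had the widest gaps between the controls. Ak7, an adenylate kinase of motile cilia, had a level of 6.35 in LDKO and 6.49 in the Irs1/2-flox control, and of 7.23 in LTKO and 5.37 in the Irs1/2:FoxO1-flox control. Stoml3, a stomatin family membrane protein of olfactory cilia, had 5.93 in LDKO and 7.07 in the Irs1/2-flox control, and 7.15 in LTKO and 5.48 in the Irs1/2:FoxO1-flox control. For Stoml3, LTKO and the Irs1/2-flox control stood together, and the other 2 arrays lay below them. The Irs1/2:FoxO1-flox control differed from the other control by -1.58 for Stoml3, -1.25 for Rsph4a and -1.11 for Ak7.

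**Figure D3:**
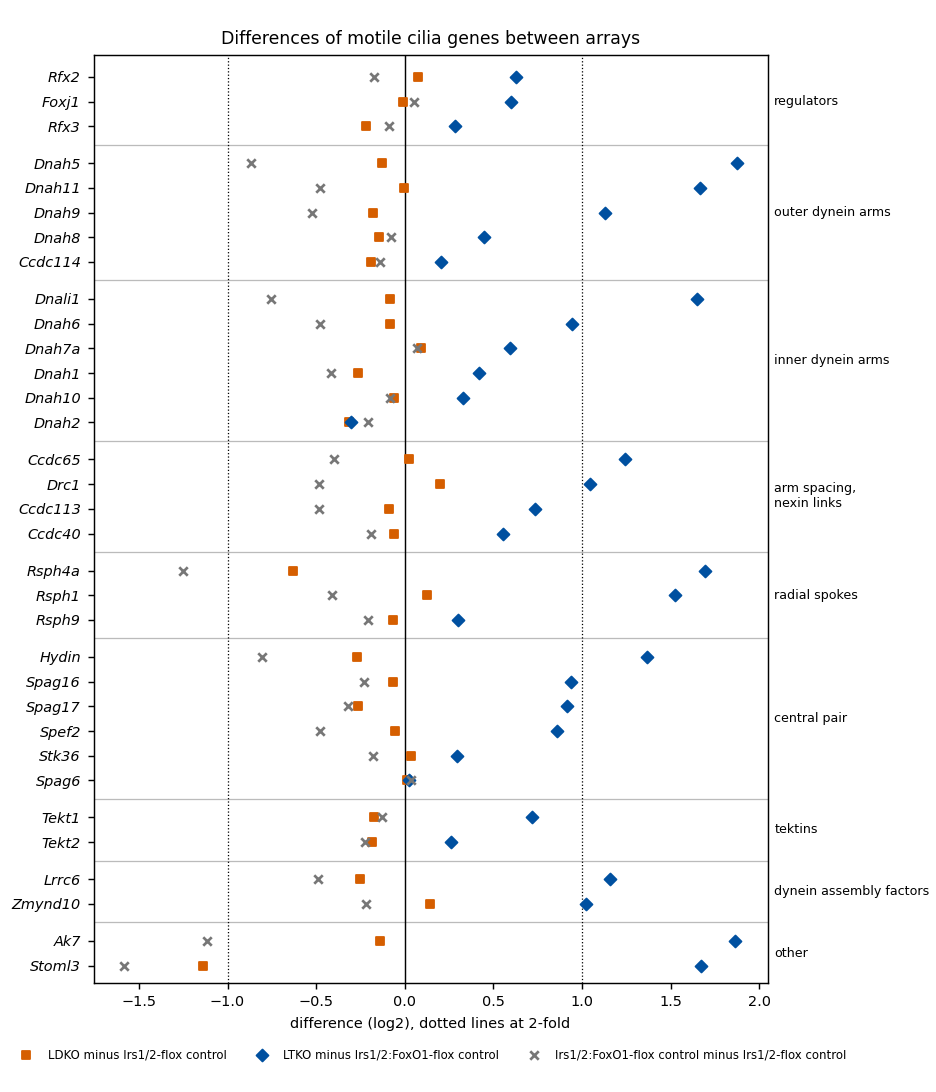
Differences in log2 units for the 33 measured members, with each Cre line minus its own control (LDKO in orange squares, LTKO in blue diamonds) and the Irs1/2:FoxO1-flox control minus the other control in grey crosses. The LTKO differences lie right of 0 for 32 genes and reach 1.87, the LDKO differences lie near 0 except for Stoml3 and Rsph4a, and 30 of the control differences lie left of 0.

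For the 13 members that were at least 2-fold higher in LTKO, the distance from the Irs1/2:FoxO1-flox control up to LTKO can be set at 100% and the other arrays placed along it. The Irs1/2-flox control reached 46.2% of that distance in the median, with 21.4% for Zmynd10, 74.0% for Rsph4a and 94.8% for Stoml3 at the ends of the order. LDKO reached 35.2% in the median. The 250 genes past 2-fold upward gave 32.8% and 25.3%. The arrays at 0% and 100% are those that chose these genes, so the shares only place the other arrays. Members were close to the 2-fold threshold on both sides, with Zmynd10 (1.02), Drc1 (1.04) and Dnah9 (1.13) just inside it and Dnah6 (0.94), Spag16 (0.94), Spag17 (0.92) and Spef2 (0.86) just outside. Of the 33 members, 14 had a mean over the 4 arrays at or above that of the median gene (5.15), and RMA compresses differences of dimmer genes.

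Other axoneme and dynein assembly genes, a list of 79 that holds no member, were also higher in LTKO in the median. This list was chosen with earlier results of these data known and is read on the same arrays. It is therefore no independent check. Of its 71 measured genes, 25 passed 2-fold upward in LTKO and 0 downward, where 1.13% and 0.0361% of all genes did. Its median difference was 0.66 in LTKO, -0.07 in LDKO and -0.33 between the controls. LTKO was the highest array for 57 of the 71 and the Irs1/2:FoxO1-flox control the lowest for 50, with both in 41 (57.8%). Lrrc34 had the greatest LTKO difference of the list, 2.24, with a level of 3.60 in LDKO and 4.50 in the Irs1/2-flox control, and of 5.90 in LTKO and 3.66 in the Irs1/2:FoxO1-flox control. LDKO, not the Irs1/2:FoxO1-flox control, was its lowest array. Sntn, the sentan protein of the ciliary tip, had a level of 6.25 in LDKO and 6.64 in the Irs1/2-flox control, and of 7.18 in LTKO and 5.17 in the Irs1/2:FoxO1-flox control. Cfap44, a tether protein of the axoneme, had 5.98 in LDKO and 6.14 in the Irs1/2-flox control, and 7.36 in LTKO and 5.28 in the Irs1/2:FoxO1-flox control. For Sntn and Cfap44, LTKO was highest and the Irs1/2:FoxO1-flox control lowest. The Irs1/2-flox control reached 43.4% of the distance to LTKO in the median of those 25 genes.

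Genes listed for the multiciliated cell programme gave a smaller difference, a median of 0.17 over 16 measured genes in LTKO, 0.02 in LDKO and -0.01 between the controls. The list also holds general centriole genes, such as Plk4 and Sass6. Gmnc, which acts at the top of that programme, had a level of 5.37 in LDKO and 5.27 in the Irs1/2-flox control, and of 6.06 in LTKO and 4.76 in the Irs1/2:FoxO1-flox control, a difference of 1.30. Myb, also of that programme, was the other gene past 2-fold, with 1.31 by its brighter probe and -0.03 by its dimmer probe. Mcidas, which acts with Gmnc, had a difference of 0.09, Ccno 0.25 and Foxn4 0.23 in LTKO. Deup1, which builds the many centrioles of such cells, had a difference of 0.31.

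Genes shared by all cilia, those of intraflagellar transport and of the cilium base, had a median difference of 0.15 over 38 measured genes in LTKO, -0.14 in LDKO and -0.02 between the controls. None of the 38 differed by 2-fold between LTKO and its control, where 1.13% of all genes were higher and 0.0361% lower. Ift81, a transport subunit that binds tubulin, had a level of 5.87 in LDKO and 6.53 in the Irs1/2-flox control, and of 6.84 in LTKO and 6.43 in the Irs1/2:FoxO1-flox control. LTKO was the highest array for 24 of the 38 genes (63.2%), against 21.7% of all genes, and 31 of the 38 were above 0 in LTKO. LDKO was the lowest array for 21 of the 38 (55.3%), Ift81 among them, against 28.0% of all genes.

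**Figure D4:**
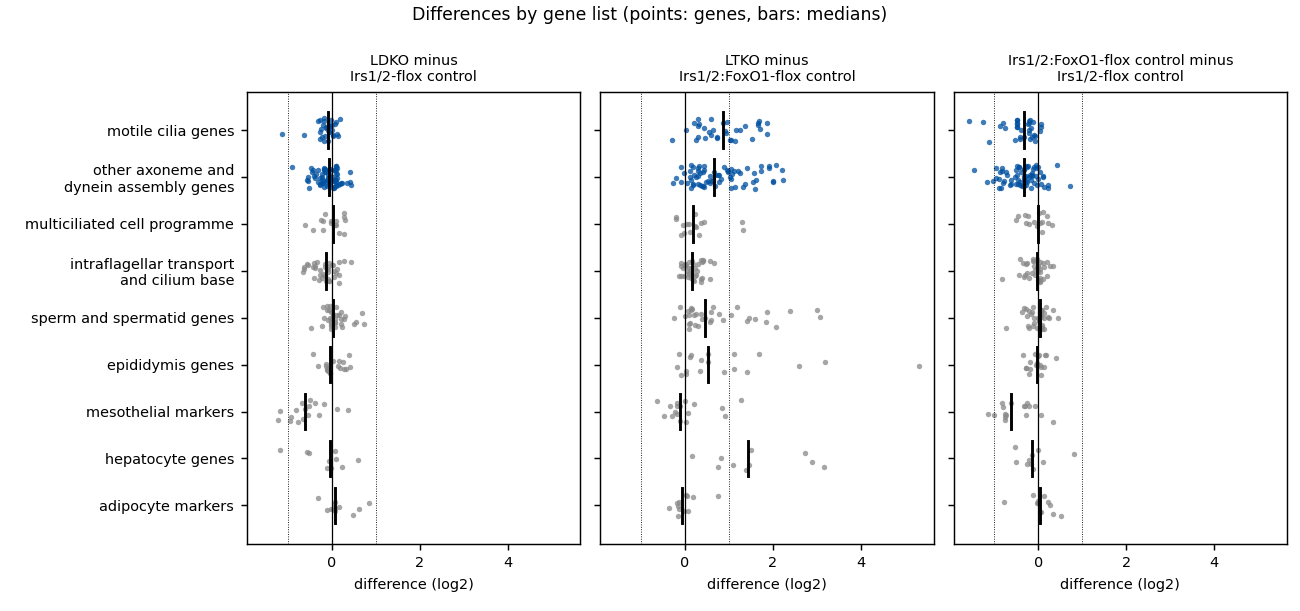
Differences of single genes in log2 units, with 1 panel for each comparison and 1 row for each gene list, the list's median marked. Of the members, 32 of 33 lie right of 0 in LTKO and 30 of 33 left of 0 between the controls. Of the other axoneme genes, 66 of 71 lie right of 0 in LTKO and 62 of 71 left of 0 between the controls. Intraflagellar transport genes stay within 2-fold, with 31 of 38 right of 0 in LTKO and 27 of 38 left of 0 in LDKO.

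Genes of other tissues also stood higher on the LTKO array. Of all genes, 1.13% passed 2-fold upward there, the share to set beside the counts that follow. Epididymis genes passed it in 7 of 19 measured, with a median difference of 0.53 in LTKO, -0.04 in LDKO and -0.03 between the controls. The other 12 of the 19 stayed within 2-fold, and 3 of them lay below 0. The list's mean level was 3.73 in LDKO and 3.69 in the Irs1/2-flox control, and 4.65 in LTKO and 3.65 in the Irs1/2:FoxO1-flox control. Sperm and spermatid genes had 11 of 35 higher, with a median difference of 0.45 in LTKO, 0.03 in LDKO and 0.03 between the controls. Hepatocyte genes had 7 of 10 higher, with mean levels of 4.49 and 4.63 in LDKO and its control and of 6.12 and 4.52 in LTKO and its control. Gpx5, a secreted enzyme of the epididymis, had a level of 8.28 in LTKO and 2.97 in the Irs1/2:FoxO1-flox control. Among other defining genes, Adam7 was 2.64-fold higher in LTKO, and the LTKO difference was 0.02 for Lcn5 and -0.18 for Rnase9 of the epididymis. It was 0.86 for Akap4 and 0.78 for Prm1 of sperm and spermatids, and for Odf1 of the sperm tail -0.26 by its brighter and 1.25 by its dimmer probe. That brighter probe was bright on every array, at 10.31 in LDKO, 10.34 in the Irs1/2-flox control, 10.40 in LTKO and 10.66 in the Irs1/2:FoxO1-flox control. What it reads was not tested. The 4 largest LTKO differences of the sperm and spermatid list were those of Adam5 (3.06), Smcp, Tnp2 (2.39) and Tnp1 (2.08). Smcp had a level of 6.17 in LTKO and 3.17 in the Irs1/2:FoxO1-flox control. Of the 35 genes, 32 were above 0 in LTKO and 3 below.

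Most of these tissue genes were dim by their mean over the 4 arrays, which includes LTKO. That mean reached the median gene for 2 of 19 epididymis genes, 5 of 35 sperm genes and 4 of 10 hepatocyte genes. RMA compresses differences at low levels. Alb of the hepatocyte list was brighter, at 7.70 in LDKO, 7.10 in the Irs1/2-flox control, 9.82 in LTKO and 6.93 in the Irs1/2:FoxO1-flox control. The part of epididymis, sperm or liver RNA in the members' differences was not tested.

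**Figure D5:**
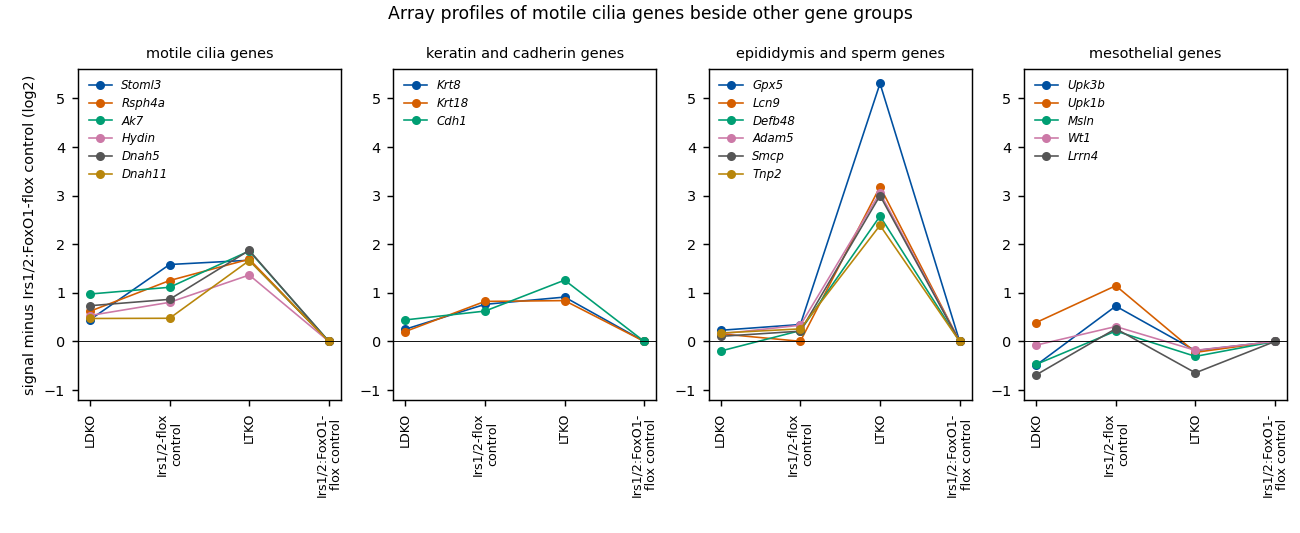
Level of single genes on each array minus that in the Irs1/2:FoxO1-flox control, in log2 units, for 6 motile cilia genes, for Krt8, Krt18 and Cdh1, for 6 epididymis and sperm genes, and for 5 mesothelial genes. The cilia genes shown lie above 0 on the other 3 arrays, and the mesothelial genes shown peak in the Irs1/2-flox control. The epididymis and sperm genes shown stand out in LTKO and are dim elsewhere. They are among those with the largest LTKO differences, and 12 of 19 epididymis and 24 of 35 sperm genes stayed within 2-fold there. Of all 33 members, 25 had the Irs1/2:FoxO1-flox control as the lowest array.

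Markers of the epithelial surface of the fat pad gave a mixed picture beside the members. Mesothelial markers, 17 measured, had mean levels of 6.46 in LDKO and 7.03 in the Irs1/2-flox control, and of 6.56 in LTKO and 6.53 in the Irs1/2:FoxO1-flox control. Upk3b, a marker of mesothelium, had 8.11 in LDKO and 9.32 in the Irs1/2-flox control, and 8.41 in LTKO and 8.60 in the Irs1/2:FoxO1-flox control, so LTKO was not its highest array. LTKO was the highest array for 4 of the 17, and the list's median difference in LTKO was -0.13. Cdh1, Krt8 and Krt18 were the 3 of the 17 with LTKO highest and the Irs1/2:FoxO1-flox control lowest, while the keratins Krt7 and Krt19, named after their values were seen, had LTKO differences of -0.34 and 0.19. Cdh1, the adhesion protein E-cadherin, had a level of 6.12 in LDKO and 6.30 in the Irs1/2-flox control, and of 6.94 in LTKO and 5.67 in the Irs1/2:FoxO1-flox control. The LTKO difference was 1.26 for Cdh1 (0.43 by its dimmer probe), 0.91 for Krt8 and 0.84 for Krt18 (0.20 by its dimmer probe), and their part in the members' differences was not tested.

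Defining genes of fat were bright on all 4 arrays, with Adipoq, the adipocyte hormone adiponectin, at 10.57 in LDKO and 10.49 in the Irs1/2-flox control, and at 10.35 in LTKO and 10.48 in the Irs1/2:FoxO1-flox control. None of 12 adipocyte markers differed by 2-fold in either Cre line. Of all genes, 0.334% were higher and 0.356% lower in LDKO, and 1.13% and 0.0361% in LTKO. The targeted genes checked no label, since Cre acts in hepatocytes: Irs1, Irs2 and Foxo1 ranged over levels of 6.96 to 8.37 on the 4 arrays. The Irs1/2-flox control was the highest array for 11 of 12 skeletal muscle genes (91.7%), against 23.4% of all genes. Their median difference was -0.65 in LDKO, -0.52 between the controls and -0.10 in LTKO.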

How the data were processed

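Levels were measured in epigonadal fat of 4 groups with 1 array each. The authors deposited log2 signals made with RMA in Affymetrix Expression Console, per the submitters' processing notes. RMA corrects the background, normalizes by quantiles and summarises the probes of a set. Versions and the set of arrays normalized together are not given in the sources used. RMA removes a shift common to all genes. Of 41345 probes, 23521 had 1 gene symbol, 1814 several and 16010 were unnamed. Gene identifiers linked the symbols to current ones in RefSeq's GRCm38.p6 annotation. Each of 22180 genes was read from its brightest single-symbol probe by mean over the arrays.

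Differences were taken between arrays, with at least 2-fold as the call and no filter on dim genes. Replicates and hence tests were lacking; the number of arrays limits the precision. The members and lists were chosen with earlier results of these data known, and motif spellings after values were seen. List genes in the text were taken from the 8 (other axoneme) or 4 (other lists) with the largest LTKO differences and from fixed markers, and not all of those are named; Spag6l, Krt7 and Krt19 were added. Promoters ran from 250 bases before to 50 after the start. Alternatives were thresholds of 1.5-fold and 3-fold, filters on level, the mean of a gene's probes, a repeated quantile normalization, a loess curve taken out (span 0.3) and other reference arrays. Steps were checked on simulated data, with planted differences beyond 2-fold and noise below the spread between the controls. That check covers the code and cannot speak to calls near the threshold. The software was pandas 2.3.3, numpy 2.4.6, statsmodels 0.14.6 and matplotlib 3.10.9 under Python 3.11.15.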

Additional observations from a re-analysis of the deposited data

Results flagged for a closer look

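Stoml3 and Rsph4a differed from their controls by at least 1.5-fold in opposite directions in the 2 Cre lines. Stoml3 was lower in LDKO by a difference of -1.14 and higher in LTKO by 1.67, a gap of 2.81 on the log2 scale. Rsph4a was lower in LDKO (-0.63) and higher in LTKO (1.69), a gap of 2.33. The gap was not tested, since each group has 1 array. Both genes were also lower in the Irs1/2:FoxO1-flox control than in the Irs1/2-flox control, by differences of -1.58 and -1.25, and those arrays are the references of the differences given above.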

How the results depend on the processing

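The choice of reference array moved the results most. With the other control as reference, the count of members at least 2-fold higher in LTKO was 3 in place of 13 and the median 0.46 in place of 0.86; with the mean of both controls the count was 7 (0.812% of all genes). With the LDKO array as reference, added after seeing the data, the count was 4 and the median 0.57. In LDKO, the median was -0.08 against its own control and 0.23 against the other, and the count of members lower was 1, and 0 with either the other control or the mean of both as reference. The threshold moved counts by construction: at 1.5-fold 22 members were higher in LTKO, 2 lower in LDKO and 6 lower between the controls (3.11%, 2.43% and 2.02% of all genes), and at 3-fold 6, 0 and 0 (0.379%, 0.0676% and 0.0361%). A filter on the mean over the 4 arrays, set at the median gene, left 14 members, with a median of 1.25. Of these, 8 were higher in LTKO (0.992% of genes past that filter). That mean includes the LTKO array, so a high level there helps a gene pass, and the filter is no independent check. Quantile normalization again and removal of a loess curve each kept all 13 members called in LTKO, and the mean of a gene's probes kept 12. Of 75 values computed, 16 moved by more than 1.5 times the count or by more than 0.26, the SD over genes of the difference between the controls. Among them, the LDKO median against the other control was the one that crossed 0. Against the mean of both controls the LDKO median was 0.05, which crossed 0 too but moved by less than 0.26. No paired analysis was possible because each group holds 1 array, and for the same reason no replicate could be left out. Dim signals limit what can be read from members such as Dnah7a and Spag6.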
